A study of Sus scrofa with 40 samples.

Results

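Leptin, adiponectin, complement factor D, retinol-binding protein 4 and adiponectin receptor 2 were followed in backfat and liver of pigs on 2 diets. The genes were taken by symbol: every probe set to which the platform annotation gives LEP, ADIPOQ, CFD, RBP4 or ADIPOR2 as its single gene symbol was used, whatever its values. This gave 10 probe sets of 5 genes, among 24029 probe sets kept of 24123 and 6765 named genes. LEP had 4 probe sets, RBP4 and ADIPOR2 had 2 each, and ADIPOQ and CFD had 1 each. Where a gene has several, each is called by the gene and the last distinct part of its identifier: LEP-S2, LEP-S3, LEP-M and LEP-5′, RBP4-S1 and RBP4-A1, ADIPOR2-S1 and ADIPOR2-A1. Probe sets of 1 gene read the same transcripts or parts of them and are not replicates of each other.

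Adipokines are proteins that fat tissue releases into the blood. Leptin reports fat stores to the brain and restrains appetite, while adiponectin, secreted by adipocytes, acts on liver and muscle through the receptors ADIPOR1 and ADIPOR2 to promote fatty acid oxidation. Complement factor D, first described in mouse adipocytes as adipsin, is the serine protease that cleaves factor B and so starts the alternative pathway of complement. Retinol-binding protein 4 carries retinol in the blood. Liver is its main source, and fat tissue also makes it.

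The animals were 20 prepubertal Yorkshire gilts, 6 months of age, from 2 selection lines of 10 pigs: one for low and one for high residual feed intake (RFI), the part of an animal's feed intake not accounted for by its growth and maintenance, so that a low RFI pig eats less for the same performance. For 8 days, restricted pigs received 80% of their maintenance need, whereas ad libitum pigs had free access to feed. Each tissue therefore had 4 groups of 5 arrays, namely low RFI restricted, low RFI ad libitum, high RFI restricted and high RFI ad libitum, and all pigs of both lines and both diets were heterozygous for a coding variant of MC4R, a receptor of the leptin-responsive appetite pathway. Backfat was the middle layer at rib 10, and the labels do not tie a liver array and a backfat array to the same pig. Line differences are those between 2 selected populations, and a diet effect is that of a single short restriction.

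All 40 arrays carried the same scale, with a mean after trimming 2% at each end of 500.09 to 500.15. The mean log2 intensity of 8 adipocyte markers was 11.86 to 13.1 in backfat and 6.32 to 7.60 in liver, and that of 16 hepatocyte markers was 4.80 to 8.09 on 19 backfat arrays and 14.47 to 15.1 in liver, so these arrays bear out both tissue labels. On the remaining backfat array, low RFI restricted replicate 5, the hepatocyte mean was 12.24. Skeletal muscle markers (13 genes) were also high on part of the backfat arrays, with a median of 10.63 in low RFI and 6.37 in high RFI backfat and the highest mean, 13.02, on the low RFI restricted replicate 1 array, which had the lowest adipocyte mean. By replicate number the arrays formed 2 sets that lay apart in liver and in backfat, namely numbers 1 and 2, and numbers 3 to 5. Both sets hold every group, and the main results are also given for each set alone.

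The 5 genes differed widely in how far backfat and liver stood apart. ADIPOQ was among the brightest probe sets of backfat, with intensities of 18513 to 32522 (median at the 99.9th percentile of its array), and dim in liver at 13.8 to 76.9 (median at the 24.3rd percentile). RBP4 was higher in liver, and only 1 of its probe sets was dim in backfat. The probe set RBP4-S1 read 737 to 6231 in backfat (median at the 94.7th percentile) and 23358 to 36104 in liver (99.8th percentile). RBP4-A1 read 11.9 to 51.1 on 19 backfat arrays (median over all 20 at the 19.3rd percentile) and 6506 to 16475 in liver. On the remaining backfat array, low RFI restricted replicate 5, RBP4-A1 read 513. That array also carried the high hepatocyte marker mean, and the diet effect on RBP4 is given with and without it.

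CFD read 3295 to 8623 in backfat and 1026 to 1984 in liver. ADIPOR2 was well measured in both tissues: ADIPOR2-S1 read 6197 to 16671 in backfat and 1841 to 6700 in liver, and ADIPOR2-A1 read 416 to 1254 in backfat and 294 to 730 in liver. The LEP probe set that was brightest in backfat, LEP-S3, read 102 to 3445 there and 1.70 to 15.4 in liver, where its median lay at the 3.44th percentile. Of the 9 probe sets tested in backfat LEP-S3 varied most across arrays, with an SD over the 20 arrays of 1.18 on the log2 scale, against 0.22 for ADIPOQ.

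**Figure D1:**
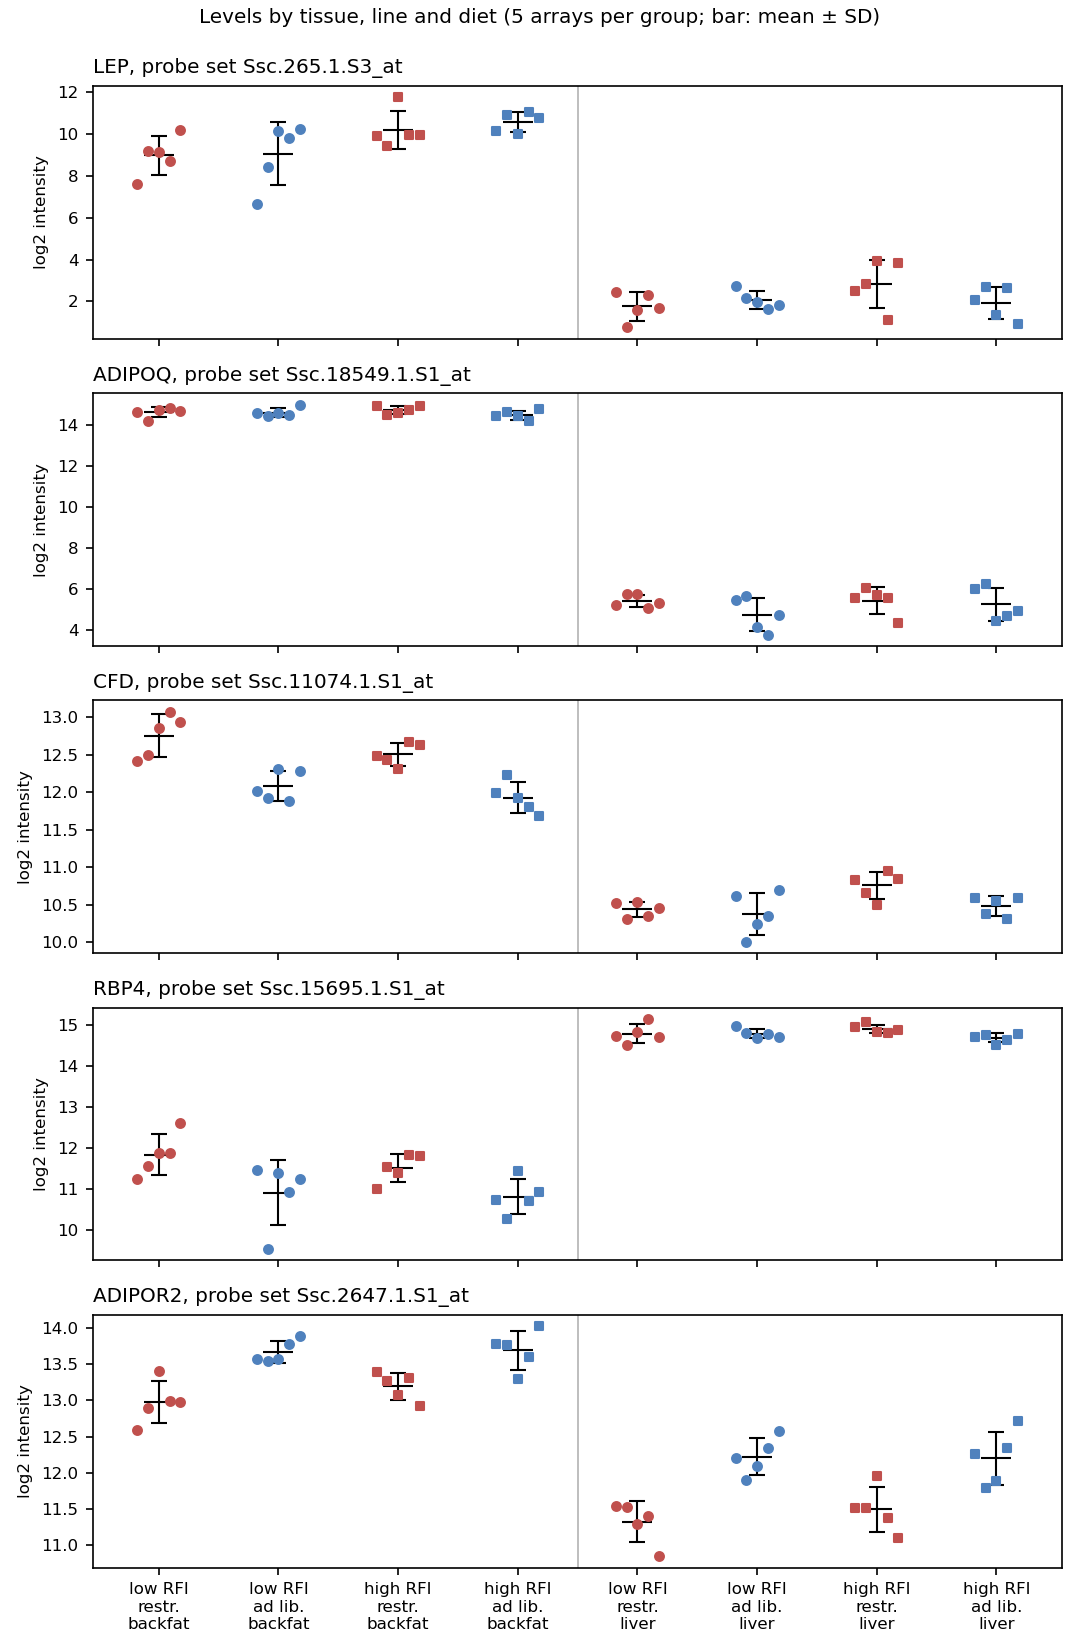
Log2 intensity (vertical axes) of the brightest probe set of each of the 5 genes on the 5 arrays of each of the 8 groups (horizontal axes), with the group mean and SD. ADIPOQ is higher in backfat and RBP4 is higher in liver. CFD is higher in restricted than in ad libitum backfat, and ADIPOR2-S1 is lower under restriction in both tissues.

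Between tissues, 80.4% of the 17195 probe sets tested differed in limma at an adjusted p under 0.05, the threshold used for all limma tests, so that a call by itself says little about any gene. All 10 probe sets were called. A probe set entered this comparison if it was bright enough in either tissue. ADIPOQ, LEP-S2 and LEP-S3 entered through backfat alone and RBP4-A1 through liver alone, so the direction of their differences was largely set by that rule. The difference in log2 intensity, backfat minus liver, was 9.38 for ADIPOQ and 1.81 for CFD. For ADIPOR2 it was 1.58 with ADIPOR2-S1 and 0.47 with ADIPOR2-A1. RBP4 was lower in backfat, with differences of -3.53 for RBP4-S1 and -8.60 for RBP4-A1. LEP differed by 7.55 and 3.68 with LEP-S3 and LEP-S2, and by 1.79 and 0.98 with LEP-M and LEP-5′, which target the middle and the 5′ part of the leptin transcript.

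The very large differences rest on intensities that cannot be told from background, because no detection calls were used. With the 20th percentile of all values added before the log, the difference of LEP-S3 was 4.60, that of ADIPOQ 8.47 and that of RBP4-A1 -7.47. Every backfat array lay above every liver array for ADIPOQ, CFD, LEP-S2 and LEP-S3, as did 14.3% of all probe sets tested. Both RBP4 probe sets lay lower on every backfat array than on any liver array, a pattern found in 8.79% of probe sets. Of these, ADIPOQ, LEP-S2, LEP-S3 and RBP4-A1 had entered the comparison through their brighter tissue alone.

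In backfat 3 of the 5 genes were called for diet, RBP4 with the largest adjusted p of the 3. CFD rose 1.54-fold and RBP4, by RBP4-S1, rose 1.76-fold in restricted relative to ad libitum backfat. ADIPOR2 fell 1.52-fold and 1.68-fold with its 2 probe sets, and neither LEP nor ADIPOQ passed the test. RBP4-A1 was too dim in backfat to be tested, at a mean log2 intensity of 4.98 in restricted and 4.82 in ad libitum backfat. The RBP4 call therefore rests on 1 of its 2 probe sets. Of the 9 member probe sets bright enough to be tested in backfat, 4 were called, against 25.8% of the 15517 probe sets tested, 15.1% called higher and 10.7% lower. A call for one of these genes has to be read against those shares. Over all the alternatives tried, the adjusted p of the diet effect lay between 2.17e-05 and 0.0974 for CFD, 0.00239 and 0.257 for RBP4-S1, 9.26e-05 and 0.0759 for ADIPOR2-A1, and 5.1e-05 and 0.0325 for ADIPOR2-S1 (limma). In whole tissue, fewer cells of a type and less RNA per cell cannot be told apart.

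CFD read 5461, 5764, 7406, 8623 and 7831 in the low RFI restricted pigs (replicates 1 to 5), against 4160, 3900, 5103, 3783 and 4983 in the low RFI ad libitum pigs. In the high RFI line it read 5726, 5512, 5076, 6534 and 6349 under restriction and 4058, 4816, 3882, 3564 and 3295 with free feeding. Within each line all 5 restricted arrays were above all 5 ad libitum arrays, as for 4.03% of probe sets in the low and 4.07% in the high RFI line. The mean log2 intensity was 12.63 ± 0.25 in restricted and 12.01 ± 0.21 in ad libitum backfat (SD, n = 10 each), a difference of 0.62 (SE 0.097, 95% interval 0.42 to 0.83, limma adjusted p = 0.000121), which ranked 302nd by p among the 15517. It was 0.67 in low RFI pigs (limma adjusted p = 0.00435) and 0.58 in high RFI pigs (adjusted p = 0.0124). The difference between those effects was 0.09, with an interval of -0.32 to 0.49, and was not called (limma adjusted p = 1.0).

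The CFD difference was 0.41 among the arrays numbered 1 and 2, where it missed the threshold (limma adjusted p = 0.0974), and 0.76 among those numbered 3 to 5 (adjusted p = 0.00127). Leaving out the low RFI restricted arrays 1 and 5, which carried muscle and liver markers, gave 0.65 (limma adjusted p = 0.000206).

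RBP4, by RBP4-S1, read 2424, 3022, 3726, 3735 and 6231 in the low RFI restricted pigs and 2804, 737, 2659, 1919 and 2396 in the low RFI ad libitum pigs. In the high RFI line the intensities were 2027, 2954, 2686, 3643 and 3564 under restriction, against 1695, 1223, 2737, 1660 and 1929 with free feeding. The highest value belongs to the array with hepatocyte markers and the lowest to low RFI ad libitum replicate 2, and the diets overlap in both lines. The mean log2 intensity was 11.67 ± 0.44 in restricted and 10.85 ± 0.60 in ad libitum backfat (SD, n = 10 each), a difference of 0.82 (SE 0.219, 95% interval 0.36 to 1.27, limma adjusted p = 0.00938).

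Neither end of that range carried the RBP4 difference alone. It was 0.72 without low RFI restricted replicate 5 (limma adjusted p = 0.0191) and 0.65 without low RFI ad libitum replicate 2 (adjusted p = 0.00885). Within lines the difference missed the threshold, at 0.93 in low RFI (limma adjusted p = 0.0635) and 0.70 in high RFI pigs (adjusted p = 0.161). It was 0.84 among arrays numbered 1 and 2 (limma adjusted p = 0.257) and 0.80 among those numbered 3 to 5 (adjusted p = 0.00812).

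One of the array's measures of RNA integrity also moved with diet in backfat. The log2 ratio of the 3′ to the 5′ GAPDH control probe set, which grows as RNA is shortened, was 1.88 ± 0.52 in restricted and 1.19 ± 0.37 in ad libitum backfat (SD, n = 10 each). The matching actin ratio was 1.90 ± 0.59 in restricted and 1.80 ± 0.42 in ad libitum backfat, a difference well within that spread. It did differ between the array sets. In liver it was 1.89 to 2.55 on arrays numbered 1 and 2 and 1.11 to 1.71 on those numbered 3 to 5. In backfat it was 1.78 to 3.44 and 1.32 to 1.82. Its part in the differences between the sets was not tested. When the 3′ to 5′ ratios of GAPDH and actin entered the fit as covariates, the diet effect was 0.40 for RBP4 (limma adjusted p = 0.2) and 0.56 for CFD (adjusted p = 0.00674). For ADIPOR2 it was -0.83 with ADIPOR2-A1 (limma adjusted p = 0.00401) and -0.59 with ADIPOR2-S1 (adjusted p = 0.00963). The adipocyte marker mean was 12.60 ± 0.28 in restricted and 12.93 ± 0.13 in ad libitum backfat (SD, n = 10 each), and its part in these results was not tested.

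**Figure D2:**
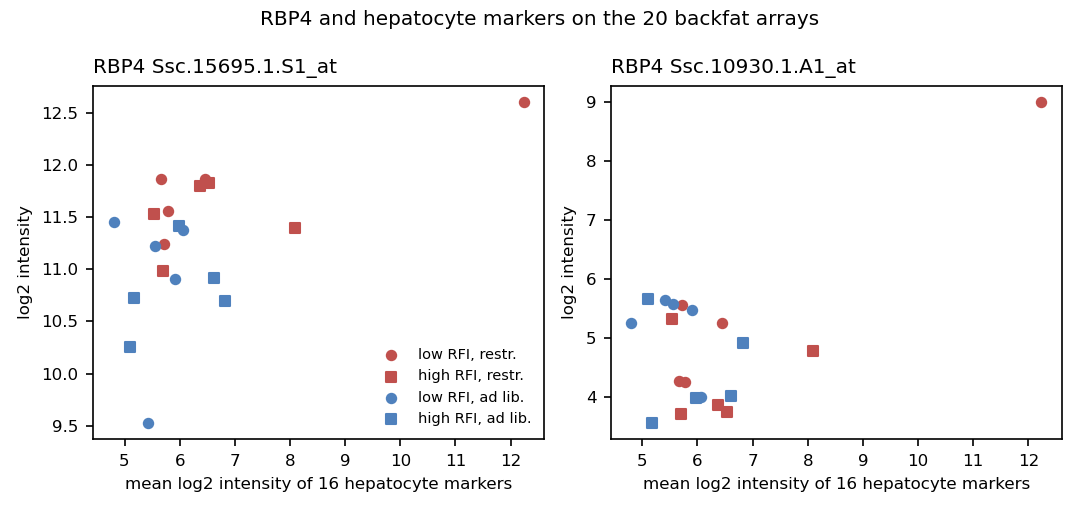
Log2 intensity of the 2 RBP4 probe sets (vertical axes) against the mean log2 intensity of 16 hepatocyte markers (horizontal axes) on the 20 backfat arrays. The low RFI restricted replicate 5 array lies apart at a marker mean of 12.24 and is highest for both probe sets, while the other 19 arrays lie between 4.80 and 8.09.

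ADIPOR2, the receptor, fell in restricted backfat. With ADIPOR2-S1 the low RFI restricted pigs read 6197, 7624, 10829, 8172 and 8047, against 12220, 11986, 12207, 14092 and 15104 in the low RFI ad libitum pigs. In the high RFI line the values were 10723, 9897, 8658, 10148 and 7726 under restriction and 14067, 13972, 10015, 12444 and 16671 with free feeding. In low RFI backfat every restricted array lay below every ad libitum array, as for 4.27% of probe sets, whereas in high RFI backfat the ad libitum replicate 3 array fell among the restricted ones. The mean log2 intensity was 13.08 ± 0.26 in restricted and 13.68 ± 0.21 in ad libitum backfat (SD, n = 10 each), a change of -0.60 (SE 0.101, 95% interval -0.81 to -0.39, limma adjusted p = 0.000243).

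The second ADIPOR2 probe set gave the same direction. ADIPOR2-A1 read 439, 531, 592, 416 and 609 in low RFI restricted backfat, against 971, 684, 960, 1154 and 1254 in low RFI ad libitum backfat. In high RFI backfat it read 624, 527, 527, 840 and 573 under restriction and 937, 763, 690, 1024 and 1093 with free feeding. The low RFI diets were again fully separate and the high RFI diets overlapped through restricted replicate 4. The pooled change was -0.74 (SE 0.126, 95% interval -1.01 to -0.48, limma adjusted p = 0.000249).

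Within lines the changes of ADIPOR2-S1 were -0.70 in low RFI (limma adjusted p = 0.00423) and -0.50 in high RFI backfat (adjusted p = 0.032), and with ADIPOR2-A1 they were -0.94 (adjusted p = 0.00238) and -0.55 (adjusted p = 0.0576). The call for ADIPOR2-S1 in high RFI backfat was lost without restricted replicate 3 or 5 or ad libitum replicate 1, 2, 4 or 5 of that line (limma adjusted p up to 0.102 in these 6 of 20 omissions). The calls within 1 line compare with 9.20% of probe sets called in low and 9.02% in high RFI backfat. Among the arrays numbered 1 and 2 and those numbered 3 to 5, ADIPOR2-S1 changed by -0.63 (limma adjusted p = 0.0325) and -0.58 (adjusted p = 0.0122). ADIPOR2-A1 gave -0.66 among numbers 1 and 2 (limma adjusted p = 0.0759) and -0.80 among numbers 3 to 5 (adjusted p = 0.00732). No probe set on the array (0.0%) was called for a difference between the lines in their response to diet in either tissue by limma. At an unadjusted p under 0.05 there were 244 of 15517 in backfat and 525 of 15698 in liver. Both are below the share of 0.05 that chance alone gives at that threshold, and the cause of the shortfall was not tested. The absence of calls does not show that the lines respond alike.

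LEP did not pass the diet test in backfat with any of its 4 probe sets. The differences in log2 intensity, restricted minus ad libitum, were -0.24 with LEP-S3 (95% interval -1.08 to 0.61, limma adjusted p = 0.716), -0.33 with LEP-S2 (adjusted p = 0.477), -0.35 with LEP-M (adjusted p = 0.214) and -0.18 with LEP-5′ (adjusted p = 0.531). The interval of the brightest probe set spans both a halving and a rise, so these arrays leave the size of a leptin response largely undetermined. All 4 estimates were below 0.

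ADIPOQ had the smallest SD across backfat arrays of the 9 probe sets tested there. Its lowest percentile on any backfat array was 99.6, near the top of the intensity range, and whether differences are compressed at that end of the scale was not tested. It read 25732, 18897, 27040, 29032 and 26285 in low RFI restricted pigs and 24182, 22244, 24417, 22624 and 32522 in low RFI ad libitum pigs. The high RFI values were 30948, 23108, 24526, 26884 and 30657 under restriction, against 21980, 25232, 21915, 18513 and 27822 with free feeding. The diets overlapped in both lines. The diet difference was 0.13 in log2 intensity, with a 95% interval of -0.07 to 0.32 (limma adjusted p = 0.351).

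**Figure D3:**
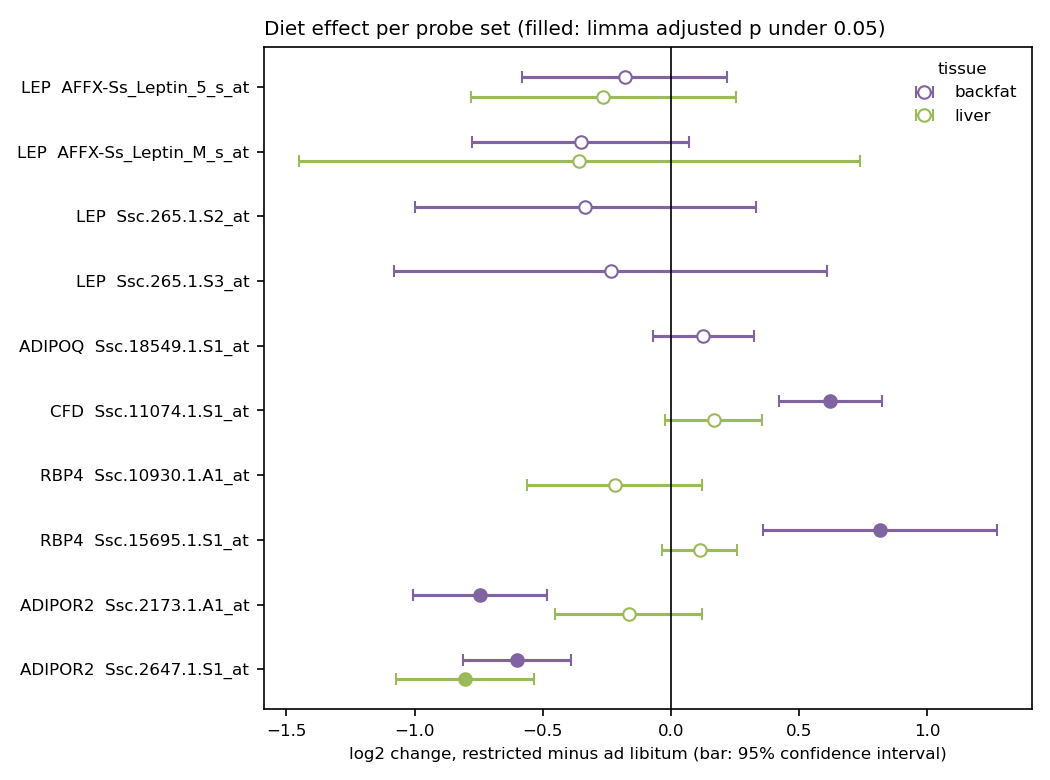
Log2 change with restriction (horizontal axis, restricted minus ad libitum) of each probe set in backfat and liver, with its 95% interval; filled symbols passed the limma test. In backfat CFD and RBP4-S1 lie above 0 and both ADIPOR2 probe sets below it, and in liver only ADIPOR2-S1 passed.

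Of the 7 probe sets tested in liver, ADIPOR2-S1 was the one called for diet, while ADIPOQ, LEP-S2 and LEP-S3 were too dim there to be tested. ADIPOR2-S1 fell 1.75-fold, a change shared by few genes in this tissue: 0.911% of the 15698 probe sets tested were called for diet, 0.541% of them lower. It read 2972, 2944, 2512, 2701 and 1841 in low RFI restricted livers and 4738, 3805, 4358, 5170 and 6095 in low RFI ad libitum livers. In high RFI livers it read 2933, 2925, 3970, 2664 and 2187 under restriction and 4895, 3542, 3795, 5207 and 6700 with free feeding. All low RFI restricted livers were below all low RFI ad libitum livers, as for 1.13% of probe sets, and the high RFI diets overlapped only through restricted replicate 3.

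The mean log2 intensity was 11.41 ± 0.29 in restricted and 12.21 ± 0.30 in ad libitum livers (SD, n = 10 each), a change of -0.80 (SE 0.130, 95% interval -1.07 to -0.53, limma adjusted p = 0.00466), which ranked 12th by p. Within lines it was -0.90 in low RFI (limma adjusted p = 0.0517) and -0.71 in high RFI livers (adjusted p = 0.4), where 0.134% and 0.0255% of probe sets were called. It was -0.51 among arrays numbered 1 and 2 (limma adjusted p = 0.257) and -0.996 among those numbered 3 to 5 (adjusted p = 0.037).

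The 2 ADIPOR2 probe sets disagreed in liver. ADIPOR2-A1 read 294 to 730 in restricted and 448 to 728 in ad libitum livers, a difference of -0.16 with a 95% interval of -0.45 to 0.12 (limma adjusted p = 0.687). The liver call for ADIPOR2 therefore rests on 1 of its 2 probe sets, and which transcripts each one reads was not examined here.

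CFD and RBP4 did not pass the diet test in liver. CFD read 1473, 1268, 1482, 1307 and 1406 in low RFI restricted livers and 1567, 1026, 1208, 1303 and 1651 in low RFI ad libitum livers. In high RFI livers it read 1825, 1616, 1447, 1984 and 1838 under restriction, against 1533, 1327, 1495, 1265 and 1537 with free feeding. The diets overlapped in both lines, and the pooled difference was 0.17 in log2 intensity (95% interval -0.02 to 0.36, limma adjusted p = 0.479).

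RBP4-S1 read 31605, 34166, 29012, 28600 and 29944 in high RFI restricted livers, all above the 26752, 27607, 23368, 25487 and 28234 of high RFI ad libitum livers, a separation seen in 0.739% of probe sets. In low RFI livers it read 27149, 23358, 28968, 36104 and 26807 under restriction and 31874, 28279, 26229, 28216 and 26520 with free feeding, with full overlap. The differences were 0.22 in high RFI (limma adjusted p = 0.712) and 0.00 in low RFI livers (adjusted p = 0.997), and the pooled difference was 0.11 (adjusted p = 0.556). RBP4-A1 gave a pooled difference of -0.22 (limma adjusted p = 0.647), opposite in sign to the other RBP4 probe set.

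Whether the response to restriction differed between tissues was tested on all 40 arrays. The 40 arrays come from 20 pigs, and because the labels do not link the tissues of a pig, all tests between tissues treat the arrays as independent. Of the 14020 probe sets tested, 10.9% were called, and of the 6 probe sets of these genes among them 3 were. The diet effect in backfat minus that in liver was 0.46 for CFD (SE 0.131, limma adjusted p = 0.0183), 0.71 for RBP4-S1 (SE 0.238, adjusted p = 0.0488) and -0.58 for ADIPOR2-A1 (SE 0.188, adjusted p = 0.0399). RBP4-S1 lay at the 99.7th to 99.9th percentile of the liver arrays, and whether differences are compressed there was not tested. With any 1 of the 40 arrays left out, the CFD difference stayed called each time, that of RBP4 lost its call in 32 of the 40 cases (limma adjusted p up to 0.0831) and that of ADIPOR2 in 20 (adjusted p up to 0.0678). For ADIPOR2-S1 the effects differed by 0.20, with a 95% interval of -0.14 to 0.54 (limma adjusted p = 0.505).

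Between lines, none of the 9 probe sets tested in backfat and none of the 7 tested in liver was called. That was so for nearly all probe sets, with 3 called in backfat (0.0193%) and 7 in liver (0.0446%). The member with the largest estimates was LEP, which was lower in low RFI than in high RFI backfat with each of its 4 probe sets, without passing the adjusted threshold.

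With LEP-S3, LEP read 197, 589, 562, 426 and 1180 in low RFI restricted backfat and 102, 349, 1141, 905 and 1207 in low RFI ad libitum backfat. In the high RFI line it read 950, 694, 3445, 998 and 990 under restriction and 1141, 1956, 1019, 2114 and 1754 with free feeding. The lowest 6 low RFI arrays lay below every high RFI array, the other 4 lay among them, and the highest value of all, in high RFI restricted replicate 3, stood well clear of the rest. Group means of log2 intensity, from low to high, were 8.98 ± 0.93 in low RFI restricted, 9.07 ± 1.52 in low RFI ad libitum, 10.20 ± 0.89 in high RFI restricted and 10.58 ± 0.48 in high RFI ad libitum backfat (SD, n = 5 each). The 2 groups within each line differed by less than their spread.

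The line difference of LEP, low minus high RFI, was -1.37 with LEP-S3 (SE 0.406, unadjusted p = 0.00296, limma adjusted p = 0.323) and -1.23 with LEP-S2 (SE 0.320, unadjusted p = 0.000939, adjusted p = 0.222). It was -0.76 with LEP-M (unadjusted p = 0.00126, limma adjusted p = 0.229) and -0.77 with LEP-5′ (unadjusted p = 0.00067, adjusted p = 0.21). These 4 estimates come from the same RNA and count as 1 observation. They ranked between 49th and 142nd by p among 15517 probe sets, and no single array left out brought any of them under the threshold, with adjusted p of 0.103 to 0.482.

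The size of the LEP difference varied with the array set. In the order LEP-S3, LEP-S2, LEP-M and LEP-5′, it was -2.12, -1.95, -1.22 and -1.26 among the arrays numbered 1 and 2, and -0.87, -0.75, -0.45 and -0.44 among those numbered 3 to 5. Muscle markers were also higher in low RFI backfat, as given above. With the hepatocyte and muscle marker means as covariates the 4 differences were -1.46, -1.23, -0.77 and -0.63.

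**Figure D4:**
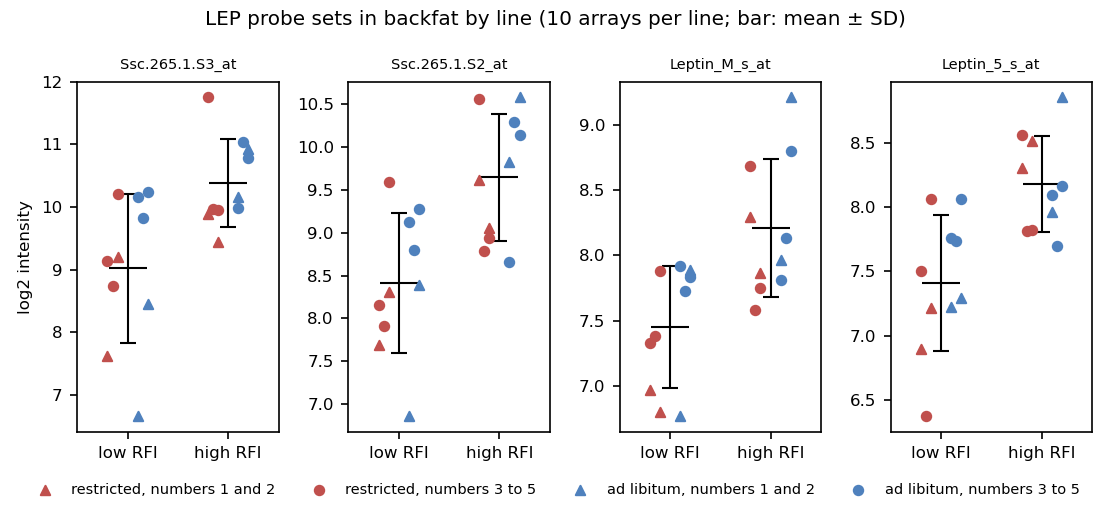
Log2 intensity (vertical axes) of the 4 LEP probe sets on the 20 backfat arrays, low RFI left and high RFI right; red points are restricted and blue points ad libitum, triangles are the arrays numbered 1 and 2 and circles those numbered 3 to 5. Low RFI arrays lie lower on average with every probe set, by -1.37 with LEP-S3, and the lines overlap.

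CFD showed a line difference of 0.21 in backfat (unadjusted p = 0.0464, limma adjusted p = 0.63) and of -0.21 in liver (unadjusted p = 0.0307, adjusted p = 0.715). The backfat minus the liver difference was 0.42 (unadjusted p = 0.00285, limma adjusted p = 0.662), in a comparison with 0.0357% of probe sets called. In backfat it was -0.07 among the arrays numbered 1 and 2 and 0.39 among those numbered 3 to 5.

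Further genes of the same pathways were taken from 8 lists, each gene represented by its brightest probe set, and are given for diet in backfat by counts beside the median change of 0.08 over all probe sets tested. These counts stand against the 15.1% of all probe sets called higher and 10.7% called lower, and with so few genes a list they are given as a description. Of 6 receptors for adipokines tested, 1 was higher and 2 were lower (median -0.01). ADIPOR1, the other adiponectin receptor, fell by 0.66 on the log2 scale, to 9.42 ± 0.24 in restricted backfat against 10.08 ± 0.26 in ad libitum backfat (SD, n = 10 each; limma adjusted p = 0.000356). The difference was -0.61 among arrays numbered 1 and 2 (limma adjusted p = 0.0585) and -0.69 among those numbered 3 to 5 (adjusted p = 0.00207). CDH13, or T-cadherin, a surface protein that binds adiponectin, changed by -0.28 (limma adjusted p = 0.0237), and was not called under quantile normalization (adjusted p = 0.0592). TNFRSF1B, a receptor of tumour necrosis factor, changed by 0.46 (limma adjusted p = 0.0212), with -0.06 among arrays numbered 1 and 2.

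Both adiponectin receptors were lower in restricted backfat while the hormone's own transcript did not pass the test. Of 11 genes of adiponectin signalling, 2 were higher and none lower (median 0.19). They were the adaptors that bind the adiponectin receptors, APPL2 with a change of 0.46 (limma adjusted p = 0.000461) and APPL1 with 0.41 (adjusted p = 0.0208), of which APPL1 was not called under quantile normalization (adjusted p = 0.0602). None of 6 genes of adiponectin assembly and secretion (median -0.05), of 9 of leptin signalling (median 0.15) or of 11 adipogenic regulators (median 0.07) was called. With the replicate number as a block, 1, 2 and 2 genes of these 3 lists were called, and calls over all probe sets also rose, as given in the last section. PPARG, the nuclear receptor that drives adipocyte differentiation, stood at -0.34 (limma adjusted p = 0.0684). LEPR, the leptin receptor, was too dim to be tested in either tissue.

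The alternative pathway of complement, which factor D starts, had 3 of 7 genes higher and none lower, with a median change of 0.68. The count was 0 among arrays numbered 1 and 2, where fewer probe sets were called in all, and 1 among those numbered 3 to 5. It was 2 to 5 with any 1 backfat array left out, the 5 without low RFI restricted replicate 1. CD46 and CD55, which protect cells from complement, rose by 0.52 on the log2 scale (limma adjusted p = 0.000216) and 0.68 (adjusted p = 0.00376). C3, the central protein of the cascade, rose by 1.19 (SE 0.416, limma adjusted p = 0.0403), with 9.37 ± 1.53 in restricted and 8.18 ± 0.76 in ad libitum backfat (SD, n = 10 each). The call was lost under quantile normalization (adjusted p = 0.058) and with no filter (adjusted p = 0.0553). Its highest value, 13.02, is from the array with hepatocyte markers. Without that array the C3 change was 0.84 (limma adjusted p = 0.0483), and with the hepatocyte and muscle marker means as covariates it was 0.49 (adjusted p = 0.132). CFB, the substrate of factor D, stood at 1.02 (limma adjusted p = 0.0699) and, without that array, at 0.62 (adjusted p = 0.0494).

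Of 12 genes of retinol handling, 4 were lower and none higher, with a median of -0.15, and 5 of the 12 estimates were above 0. RDH11, a retinal reductase, fell by 0.86 on the log2 scale (limma adjusted p = 0.000139), and DGAT1, which makes triglycerides and can esterify retinol, fell by 0.82 (adjusted p = 0.000512). The other 2, named after their values were seen, were ALDH1A1, which makes retinoic acid from retinal, at -0.71 (limma adjusted p = 0.000537), and CRABP2, a binding protein for retinoic acid, at -0.98 (adjusted p = 0.0217). Of these, CRABP2 was at -0.31 among arrays numbered 1 and 2 (limma adjusted p = 0.773). TTR, the partner of RBP4 in blood, was tested in liver only, where its diet difference was 0.08 (limma adjusted p = 0.754).

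Among 20 other adipokines tested, 1 was higher and 1 lower, with a median of 0.08. DPP4, a surface peptidase that adipocytes also release, rose 2.96-fold, to 8.22 ± 0.58 in restricted backfat against 6.65 ± 0.39 in ad libitum backfat (SD, n = 10 each; limma adjusted p = 1.38e-05). C1QTNF6, a relative of adiponectin, fell by 1.11 on the log2 scale (limma adjusted p = 0.0083), and stood at -0.34 among arrays numbered 1 and 2 (adjusted p = 0.769). In liver none of the genes tested in these 8 lists was called for diet by limma. With the replicate number as a block, 1 gene was called in each of 3 lists (other adipokines, adiponectin assembly and adiponectin signalling). The share of all liver probe sets called with the block is not given here, so these calls are a description only. ADIPOR1 stood there at -0.21 (limma adjusted p = 0.609), C3 at 0.14 (adjusted p = 0.505) and CFB at 0.14 (adjusted p = 0.365).

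**Figure D5:**
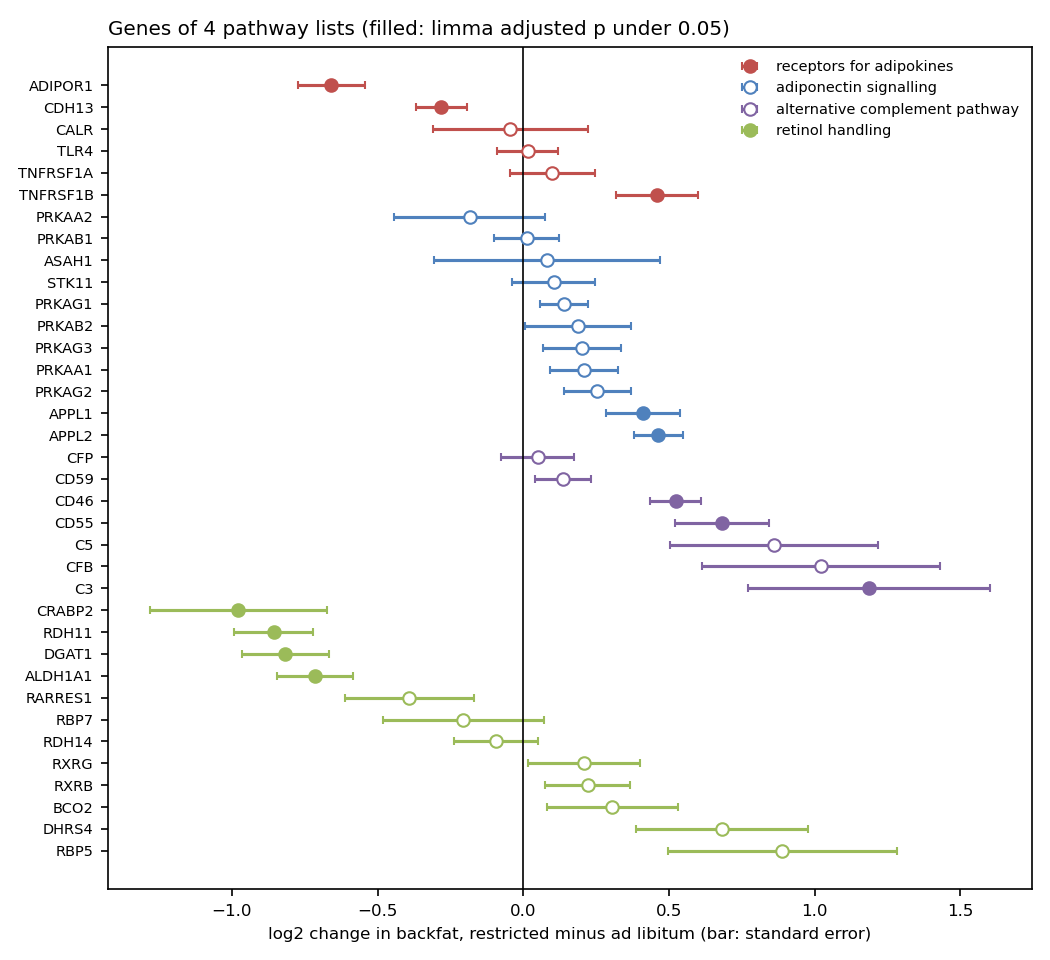
Log2 change with restriction in backfat (horizontal axis, restricted minus ad libitum), with its SE, of the genes tested in 4 lists; filled symbols passed the limma test. In the alternative complement list 3 of 7 genes are higher, in the retinol list 4 of 12 are lower, and among the receptors ADIPOR1 lies at -0.66.

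The genes whose log2 intensity most resembled each member's over the 20 arrays of a tissue were found by Pearson's r, given as a description. These r values pool lines, diets and array sets. In backfat, RBP4 ran closest to HADHA (r = 0.912), a subunit of the mitochondrial enzyme of fatty acid oxidation, CRYL1 (0.911) and APOD (0.887), and these stayed at 0.863, 0.820 and 0.805 once the mean of each group within each array set was removed. ADIPOR2-S1 ran closest to PGD (0.937), MPC2 (0.935) and TALDO1 (0.934), where PGD and TALDO1 are enzymes of the pentose phosphate pathway and MPC2 is part of the mitochondrial pyruvate carrier. With group and set means removed they stood at 0.789, 0.736 and 0.757.

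CFD ran closest to C1S (0.900), a protease of the classical complement pathway, ARHGEF6 (0.887) and MARCH6 (0.876). Without group and set means, ARHGEF6 dropped to 0.351, while C1S stood at 0.685 and MARCH6 at 0.636. ADIPOQ ran closest to ITM2B (0.846), PPP1CA (0.778) and TRPM7 (0.775), and LEP-S3 to NPC1 (0.818), GPM6B (0.796) and PEF1 (0.788).

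In liver, RBP4-S1 ran closest to C3 (0.976), HPX (0.961) and TF (0.955), all proteins the liver secretes. All 4 probe sets lie at the top of the intensity range, with median percentiles of 99.8 to 99.9, and their array-to-array SD is small. ADIPOR2 in liver ran closest to BLMH (0.831), AAGAB (0.828) and TSC22D3 (0.811), none of which was among its nearest in backfat. CFD in liver ran closest to SDE2 (0.773), CBLB (0.771) and GPR108 (0.758), and the brightest LEP probe set tested there, LEP-5′, to GLIPR2 (0.746), TEAD1 (0.717) and HNRNPDL (0.702).

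Pairs of the 5 genes were correlated across arrays within each array set, in 26 relations. CFD and RBP4 in the 12 backfat arrays numbered 3 to 5 gave the only one with an adjusted p under 0.05, at r = 0.886 (permutation p = 0.00016, adjusted p = 0.00416) and rho = 0.923 (permutation p = 0.0001, adjusted p = 0.0026), and r was 0.905 without the 2 arrays farthest from the median of CFD. Among the 8 arrays numbered 1 and 2, r was 0.603 (exact permutation p = 0.121), rho was 0.714 (exact permutation p = 0.0576), and r was 0.170 without the 2 farthest. Since CFD and RBP4 both differed between the diets in backfat, the pooled r also holds the diet difference. Within the 6 restricted arrays numbered 3 to 5, r was 0.673 (exact permutation p = 0.0694) and rho 0.943 (exact permutation p = 0.0167). Within the 6 ad libitum arrays r was 0.683 (exact permutation p = 0.164) and rho 0.657 (exact permutation p = 0.175). The 12 arrays and the 6 restricted ones include low RFI restricted replicate 5, with hepatocyte markers and the highest RBP4-S1 value. No r without that array is given here.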

How the data were processed

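The authors deposited linear intensity values, 1 per probe set and array, of a 1-colour Affymetrix porcine array hybridised with liver or backfat RNA. The software affy and MAS5 are named per the submitters' processing notes, without a version or a role. The trimmed mean of each array showed that the deposited intensities were already scaled, and they were used as they stood. From the 24123 probe sets, 94 controls without a single gene symbol were left out and 30 with one, among them the leptin controls, were kept. The annotation gave 10099 probe sets 1 symbol, 198 several and 13732 none.

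Intensities were log2-transformed. A probe set entered the tests of a tissue if 5 or more of the 20 arrays had it above their 40th percentile, which left out RBP4-A1 in backfat and LEP-S2 and LEP-S3 and ADIPOQ in liver. Levels were compared between tissues for probe sets that passed in either tissue, and diet or line effects for those that passed in both. limma 3.58.1 (R 4.3.3; lmFit, eBayes with an intensity trend) was fitted to all groups of a tissue, or to all 40 arrays between tissues, and p-values were adjusted by Benjamini-Hochberg over every probe set tested, and called below 0.05. Effects are restricted minus ad libitum, low minus high RFI, and backfat minus liver. The labels give separate samples of each group but no animal numbers, so p-values measure the spread between these samples. Without counts, the number of arrays limits the precision.

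The genes named were all probe sets of the 5 genes, the 2 with the smallest p of each list holding a called gene, fixed partners (ADIPOR1, CDH13, LEPR, TTR, STRA6, CFB, C3, PPARG, where measured) and the 3 most alike in r. Members and lists were chosen with earlier results of these data known. Alternatives were quantile normalization, no or a stricter filter (60th percentile), an offset, no trend, a replicate block, array set as covariate, each array set alone, control ratios or marker means as covariates, each array left out and, chosen after seeing the data, 2 backfat arrays left out together. For the lists, averaging the probe sets of each gene was the alternative. Correlations used exact permutation, or 100000 permutations for the larger set, two-sided, and were adjusted over 26 relations. The fits were tested on simulated data. Tables and plots were made with pandas 2.3.3, matplotlib 3.10.9, scipy 1.17.1 and numpy 2.4.6 under Python 3.11.15.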

Additional observations from a re-analysis of the deposited data

Results flagged for a closer look

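Of 64 groups of 5 arrays examined, 6 held an array whose gap to the nearest other was large for the group's range, where chance gives about 1 in 20. LEP-5′ was low in liver of high RFI restricted replicate 1, at a log2 intensity of 5.21 against 6.89 to 7.47 in the other 4. LEP-M was low in backfat of low RFI ad libitum replicate 1, at 6.77 against 7.73 to 7.92. LEP-S3 was high in backfat of high RFI restricted replicate 3, at 11.75 against 9.44 to 9.96. ADIPOQ in backfat was high in low RFI ad libitum replicate 5, at 14.99 against 14.44 to 14.58, and low in low RFI restricted replicate 2, at 14.21 against 14.65 to 14.83. RBP4-S1 was low in backfat of low RFI ad libitum replicate 2, at 9.53 against 10.91 to 11.45.

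The response to restriction differed between backfat and liver, by the limma test of the difference on all 40 arrays, by 0.46 for CFD, 0.71 for RBP4-S1 and -0.58 for ADIPOR2-A1 on the log2 scale. Of 51 alternatives, the call was lost in 1 for CFD, 38 for RBP4-S1 and 25 for ADIPOR2-A1, and ADIPOR2-S1 gave 0.20 (limma adjusted p = 0.505), opposite in sign to ADIPOR2-A1.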

How the results depend on the processing

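Of 23 called results for single probe sets, none changed sign under any alternative and 12 lost their call under at least 1. Of 111 that were not called, 55 changed sign and 3 were called under some alternative. The 4 calls for diet in backfat were 1 among the arrays numbered 1 and 2, and the single call in liver was 0 there. That setting has 8 arrays, and for diet in backfat 158 probe sets were called higher and 307 lower in it. With the control ratios as covariates, the RBP4-S1 call for diet in backfat was lost. The 3 calls for a diet response that differs between tissues were 1 with no filter, 0 among numbers 1 and 2, 1 among numbers 3 to 5, 1 with the control ratios as covariates, 1 without low RFI restricted replicates 1 and 5 of backfat (chosen after seeing the data), and 1 to 3 with any 1 array left out; the cause was not tested. For that comparison the shares of all probe sets called in these settings are not given here. The lower counts are therefore not read as a result about these genes. Leaving out 1 array left the counts at 4 in backfat, 1 in liver and 10 between tissues. With the replicate number as a block these counts stayed at 4, 1, 10 and 3, and 5019 probe sets in all were called for diet in backfat, against 4008 without it. The block added calls within lines in backfat for RBP4 in low RFI (limma adjusted p = 0.0247) and ADIPOR2-A1 in high RFI pigs (adjusted p = 0.0312). Most same-numbered arrays deviated together, with r over 0.1 in 23 of 30 pairs in backfat and 26 of 30 in liver. Pairing was not assumed, since the labels do not state it and the other 7 and 4 pairs were at or below 0.1. In each tissue 13 of 20 arrays correlated best with their own number. Over all probe sets, diet in backfat gave 2344 higher and 1664 lower, 1830 and 1909 after quantile normalization (where the median change of 0.08 became 0.02), 158 and 307 among numbers 1 and 2, and 916 and 920 with the control ratios as covariates. Intensities of LEP and ADIPOQ in liver and of the dim RBP4 probe set in backfat are near background and limit their differences between tissues.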
